A study of Mus musculus with 4 samples.

Results

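The nuclear genes for the enzymes of oxidative phosphorylation were examined in back skin of mice with and without Fgf18 in keratin 5-positive epithelium. The group comprised every gene whose name on the array begins with Ndufa, Ndufb, Ndufc, Ndufs, Ndufv, Sdha to Sdhd, Uqcr, Cox4, Cox5, Cox6, Cox7, Cox8 or Atp5. These prefixes took in 90 genes, measured by 133 of the 41174 probes, and 87 of the 90 were among the 17555 genes bright enough to test. Of the 90 genes, 80 encode subunits of the complexes. The other 10 share a prefix but are assembly factors or other proteins.

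Each genotype was 1 pool of polyA RNA from full-thickness dorsal skin of 3 male mice aged 42 days. The cKO mice carried a conditional Fgf18 knockout directed to keratin 5-positive cells, and the WT mice were C57BL/6, the strain that the labels give for both. The labels place both in telogen, when hair follicles rest. Both pools were run on 2 one-colour arrays each, so every spread and p-value below comes from technical duplicates and compares 2 pools. Variation among mice, and so between the genotypes, was not measured. The design sought target genes of Fgf18, a growth factor secreted in skin, during telogen. Fgf18 itself had a log2 change, cKO minus WT, of -0.33, which is 1.26-fold lower (adjusted p = 0.0035). Its probe reads whole skin and the deleted exons are not named in the labels, so this value does not check them.

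Oxidative phosphorylation is the last stage of respiration in mitochondria. Complexes I and II pass electrons from NADH and succinate to coenzyme Q, complex III passes them to cytochrome c, and complex IV passes them to oxygen. Complexes I, III and IV pump protons across the inner membrane, and complex V, the ATP synthase, lets them return and makes ATP. Most subunits are encoded in the nucleus, and a few, including the catalytic cores of complex IV, in mitochondrial DNA. Some subunits of complex IV have a form typical of striated muscle, used in part by brown fat too: Cox6a2, Cox7a1 and Cox8b, where most tissues use Cox6a1, Cox7a2 and Cox8a.

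The stretches before the transcription start are shown for 4 of the isoforms compared below and for Atp5e, the member with the lowest change. They are RefSeq sequences of GRCm38.p6, written 5′ to 3′ on the strand of the gene, from 190 bases before the start to 10 bases after it. Capitals mark matches, on either strand, to GCGCANGCG (the core of the motif of nuclear respiratory factor 1, NRF1), CCGGAAG (the core of ETS factors, the family of GABP), AAGATGGCG (YY1) or CAGCTG (the E-box of muscle factors). RefSeq promoters were matched for 75 of the 90 genes, and Cox6a2 was not among them. Cox7a2 was matched and held none of the motifs, and its stretch is not shown.
Cox6a1, chr5:115348949-115349148, minus strand: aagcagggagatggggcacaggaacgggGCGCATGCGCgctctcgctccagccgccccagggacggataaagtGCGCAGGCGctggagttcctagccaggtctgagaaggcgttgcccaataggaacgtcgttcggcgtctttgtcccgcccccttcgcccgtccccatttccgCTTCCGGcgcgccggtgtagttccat
Cox8a, chr19:7217607-7217806, minus strand: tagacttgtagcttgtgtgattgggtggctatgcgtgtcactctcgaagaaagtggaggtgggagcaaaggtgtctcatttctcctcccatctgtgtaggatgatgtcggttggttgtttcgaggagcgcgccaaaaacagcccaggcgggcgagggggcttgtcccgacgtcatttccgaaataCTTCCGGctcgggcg
Cox7a1, chr7:30183981-30184180, plus strand: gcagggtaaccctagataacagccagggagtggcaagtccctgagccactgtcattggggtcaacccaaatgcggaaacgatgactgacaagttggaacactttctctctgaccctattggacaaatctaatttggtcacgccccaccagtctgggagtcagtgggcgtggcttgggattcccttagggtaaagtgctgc
Cox8b, chr7:140900437-140900636, minus strand: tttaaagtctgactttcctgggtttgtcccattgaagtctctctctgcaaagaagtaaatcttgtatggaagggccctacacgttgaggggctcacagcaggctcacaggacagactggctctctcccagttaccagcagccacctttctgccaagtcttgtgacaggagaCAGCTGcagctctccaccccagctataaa
Atp5e, chr2:174464092-174464291, minus strand: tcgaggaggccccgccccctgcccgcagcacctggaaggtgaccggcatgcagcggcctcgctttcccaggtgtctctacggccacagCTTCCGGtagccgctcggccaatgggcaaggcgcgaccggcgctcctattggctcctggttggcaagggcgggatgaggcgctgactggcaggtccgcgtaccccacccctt

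The general isoform Cox6a1 held 3 matches to the NRF1 core, which begin 162, 161 (the same site read on the other strand) and 117 bases before the start, and 1 match to the ETS core 16 bases before it, and Cox8a and Atp5e held the ETS core 5 and 102 bases before it. The muscle isoform Cox8b held an E-box 19 bases before its start, and the stretch shown for Cox7a1 held none of the 4 motifs.

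Nearly all members had lower levels in the cKO pool, by a similar and small amount. Of the 87 tested, 9 fell at an adjusted p under 0.05 and at least 1.5-fold, and none rose (called lower or higher below means both thresholds). Among all genes tested, 4.82% were called lower and 5.67% higher by the same rule. The median log2 change of the members was -0.42, or 1.34-fold lower, with quartiles of -0.52 and -0.33. For all genes tested the median was -0.051, and 11.4% of them had a change at or below the members' median. Of the 87, 75 lay within 0.2 log2 units of their median, where 51.9% of all genes lay within 0.2 of theirs. A mean scaled log2 level of 4 or more was held by 58 members and 915 other genes. The remaining 29 members and 16553 other genes were dimmer, and the spread was not compared at equal brightness. The whole range of the members was -0.82 to 0.14. Below 0 were 84 of the 87 members, against 57.1% of all genes. The members above 0 were Cox6b2, Cox4nb and Atp5sl, and the last 2 are no subunits.

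On adjusted p alone, 84 of the 87 members were lower, against 33.6% of all genes, and 1 was higher (Cox6b2), against 22.2%. Both cKO arrays lay below both WT arrays for 84 members, which held for 48.1% of all genes. In bulk skin, fewer cells of a type and less RNA per cell cannot be told apart. The count of 9 rested on the scaling: after quantile normalization, with or without normexp background correction, or with the arrays centred on bright genes, Atp5e alone passed both thresholds, while at least 82 of the 87 members were below 0. Without WT replicate 2, 6 members were called. The 84 lower on adjusted p alone were 77 and 76 under the quantile settings with and without normexp, 70 with centring on bright genes, 82 with the replicate block and 72 to 81 without 1 array.

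**Figure D1:**
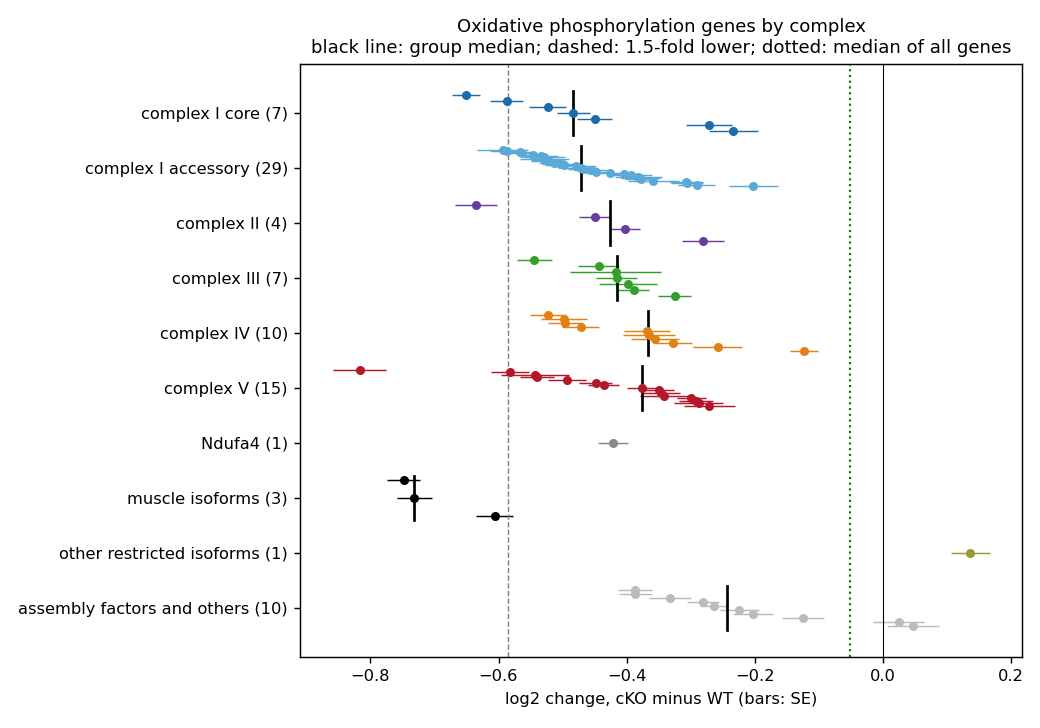
Each point is the log2 change (cKO minus WT, x axis) of 1 member with its SE over duplicate arrays, grouped by complex (y axis, number tested in brackets). All 36 complex I genes lie below 0, and the 3 muscle isoforms lie left of the dashed line at 1.5-fold.

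Complex I, NADH dehydrogenase, had the lowest median of the 5 complexes under this scaling. Its 36 tested subunits had a median log2 change of -0.47 and a range from -0.65 to -0.20, and 4 of them fell, among them Ndufv2, Ndufv3 and Ndufb10. The 7 core subunits, which are conserved from bacteria and include those that carry the flavin and iron-sulfur clusters, had a median of -0.48. The 29 accessory subunits, which surround the core, had -0.47.

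Ndufv2, an iron-sulfur subunit of the module that takes electrons from NADH, had scaled log2 levels of 2.62 and 2.63 in cKO and 3.28 and 3.28 in WT. Both cKO arrays were low, the duplicates were close together and the groups did not overlap. Both cKO arrays lay below both WT arrays for 48.1% of all genes. Ndufv2 fell 1.57-fold (log2 change -0.65, SE 0.022, adjusted p = 0.0012). A second probe of Ndufv2 was far dimmer, with levels of -4.82 and -4.71 in cKO and -4.55 and -4.56 in WT. It gave -0.21, and the mean of both probes, -0.43, no longer passed the fold threshold.

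Other core subunits were spread over most of the range of the complex. Ndufs8 (-0.52), Ndufs7 (-0.48) and Ndufs3 (-0.45), which belong to the arm between the flavin and the membrane, lay near the median. Ndufv1, which binds NADH and the flavin, had -0.27, and Ndufs1, the largest iron-sulfur subunit, had -0.23. Ndufv1 and Ndufv2 sit together in the NADH module, and their brightest probes had changes of -0.27 and -0.65. This difference was not tested. The mean of the probes of Ndufv2, which includes the far dimmer one, was nearer to Ndufv1, at -0.43.

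Among accessory subunits, Ndufv3 had levels of 2.06 and 2.12 in cKO and 2.65 and 2.72 in WT, and fell 1.51-fold (adjusted p = 0.0029). Its 2 other kept probes, both dimmer, gave -0.25 and -0.23, and with the mean of its probes, -0.36, it was no longer called. Ndufb10, of the membrane arm, had 4.58 and 4.57 in cKO and 5.14 and 5.18 in WT, and fell just past 1.5-fold (log2 change -0.59, adjusted p = 0.0017). For both genes the cKO arrays lay below the WT arrays, which held for 48.1% of all genes. The gap between the groups was many times that between duplicates. Both lay close to the threshold: without WT replicate 2, their log2 changes were -0.56 and -0.57 and neither was called. Ndufb6 (-0.47) was nearest to the accessory median and Ndufa10 (-0.48) nearest to that of the whole complex. Ndufb5 had the smallest change, -0.20, with levels of 1.67 and 1.69 in cKO against 1.85 and 1.93 in WT.

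Ndufa4, named for complex I but now placed with complex IV, had -0.42 (adjusted p = 0.0022). It was left out of both complexes here.

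Complex II, succinate dehydrogenase, is the one respiratory complex encoded wholly in the nucleus, and it is also an enzyme of the tricarboxylic acid cycle. Its 4 genes had a median log2 change of -0.43, and 1 of them fell. Sdhb, the iron-sulfur subunit, had levels of 3.18 and 3.12 in cKO and 3.79 and 3.78 in WT. It fell 1.55-fold (log2 change -0.64, SE 0.033, adjusted p = 0.0021). Sdha, the flavoprotein that oxidises succinate, had 2.034 and 2.002 in cKO against 2.47 and 2.46 in WT, a change of -0.45. The membrane anchors Sdhd and Sdhc had -0.40 and -0.28. In all 4 genes both cKO arrays were lower than both WT arrays, which held for 48.1% of all genes.

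Complex III, the cytochrome bc1 complex, had the narrowest range among the 5 complexes. Its 7 nuclear subunits in the rule had a median of -0.42 and a range from -0.54 to -0.33, and none was called. Uqcrfs1, the Rieske iron-sulfur protein, had levels of 3.85 and 3.83 in cKO and 4.37 and 4.40 in WT, a change of -0.54 (SE 0.027, adjusted p = 0.0019) and 1.46-fold lower. Uqcr (now Uqcr11) was at the median with -0.42, and Uqcrh, the hinge protein that helps cytochrome c to dock, had -0.33. For all 7 genes both cKO arrays were below both WT arrays, which held for 48.1% of all genes. Cyc1, the cytochrome c1 of the same complex, lies outside the prefixes and had -0.16 (adjusted p = 0.040).

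Complex IV, cytochrome c oxidase, had a median of -0.37 over its 10 general subunits, and none was called. Cox6c, a small membrane subunit, had the largest change, with levels of 5.63 and 5.64 in cKO and 6.14 and 6.18 in WT, or 1.44-fold lower (log2 change -0.52, SE 0.028, adjusted p = 0.0022). Cox5b (-0.37), which binds zinc, and Cox4i1 (-0.37), the main regulatory subunit, were at the median. Cox8a had the smallest change. Its levels were 5.66 and 5.66 in cKO and 5.78 and 5.78 in WT, a change of -0.12 (adjusted p = 0.020), whose sign turned to 0.094, 0.082 and 0.064 under normexp with quantile normalization, quantile normalization alone and centring on bright genes.

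Complex V, the ATP synthase, held the member with the lowest change and a median of -0.38 over 15 subunits. Atp5e, the epsilon subunit of the rotor stalk, had levels of 5.69 and 5.67 in cKO and 6.45 and 6.54 in WT. Both cKO arrays were far below both WT arrays, and the WT duplicates were further apart than the cKO ones. Atp5e fell 1.76-fold (log2 change -0.82, SE 0.041, adjusted p = 0.0020), and it was the one member called under every setting tried. Atp5j (-0.38), in the stalk that holds the catalytic head, was nearest to the median.

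The ring of subunit c, through which protons pass, is encoded by 3 genes whose mature proteins are the same, and these were compared after their values were seen. Atp5g1 had 3.66 and 3.62 in cKO and 4.23 and 4.21 in WT, a change of -0.58 that was just short of 1.5-fold and was not called. Atp5g2 had -0.30, and Atp5g3 had -0.27, the smallest change in the complex. The difference between these genes was not tested.

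The muscle forms of complex IV subunits all fell. Their median log2 change was -0.73, and each lay below all 10 general subunits of complex IV. Cox6a2 had levels of 5.28 and 5.29 in cKO and 6.02 and 6.05 in WT (means 5.28 ± 0.0026 and 6.03 ± 0.023, SD, n = 2 arrays). It fell 1.68-fold (log2 change -0.75, SE 0.025, adjusted p = 0.0012). Cox8b had 5.31 and 5.28 in cKO and 6.04 and 6.01 in WT, and fell 1.66-fold (log2 change -0.73, SE 0.027, adjusted p = 0.0014). Cox7a1 had 4.87 and 4.85 in cKO and 5.45 and 5.49 in WT, and fell 1.52-fold (log2 change -0.61, SE 0.029, adjusted p = 0.0019). In each of the 3 genes the duplicates were close and the groups far apart. None of them passed the fold threshold after quantile normalization, with or without normexp, or with centring on bright genes, where their log2 changes ran from -0.56 (Cox6a2) to -0.42 (Cox7a1). Without WT replicate 2, Cox7a1 (-0.58) was no longer called. The probes lie on mm9 at chr7:135349160-135349219 (Cox6a2), chr7:148084852-148084911 (Cox8b) and chr7:30970337-30970948 (Cox7a1, whose probe spans more of the genome than its own length). No gene models of that build were used here, so the exon under each probe is not stated.

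The general partners of these subunits had smaller differences, and none was called. Cox6a1 had levels of 6.62 and 6.61 in cKO and 6.83 and 6.91 in WT, a log2 change of -0.26. Cox7a2 had 4.98 and 5.02 in cKO and 5.32 and 5.39 in WT, a change of -0.36, and a second probe of it gave -0.52. The change of Cox6a2 exceeded that of Cox6a1 by -0.49, that of Cox8b exceeded Cox8a by -0.61, and that of Cox7a1 exceeded Cox7a2 by -0.25. A difference within an array does not move with a scaling by 1 number per array. After normexp and quantile normalization it was -0.41, -0.59 and -0.24 for the same pairs, and with the mean of probes it was -0.17 for Cox7a1 and Cox7a2. In each pair the differences on the cKO arrays did not overlap those on the WT arrays. Among single genes, both cKO arrays lay below both WT arrays for 48.1%, and the share over gene pairs was not computed. The exact permutation test gave p = 0.333, the smallest that 2 arrays against 2 allow, so it cannot separate the isoforms.

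**Figure D2:**
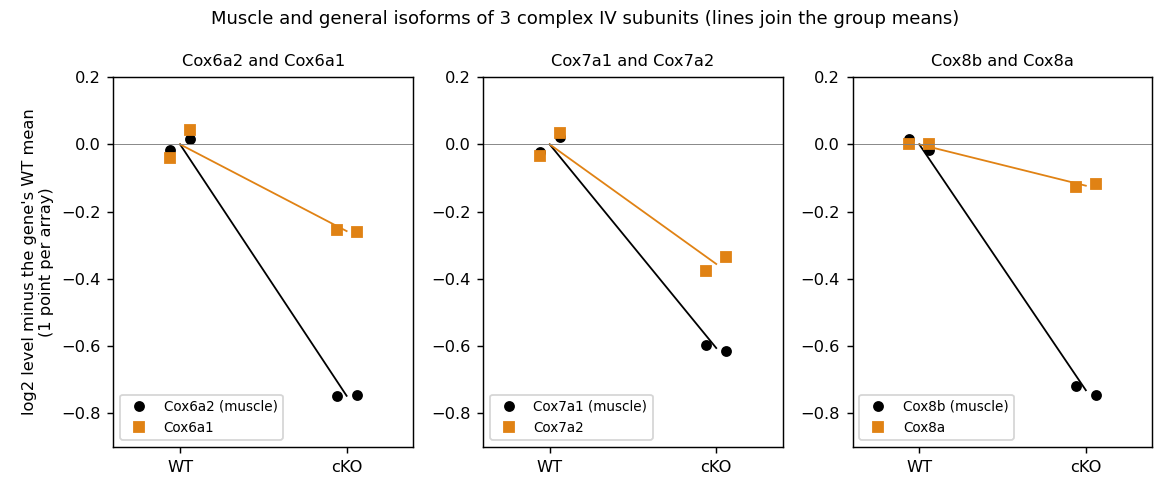
Each point is 1 array's log2 level minus the WT mean of the same gene (y axis) in the WT and cKO groups (x axis), for the muscle isoform (black circles) and the general isoform (orange squares) of 3 complex IV subunits. Lines join group means, and the black line drops further in each panel, to -0.75, -0.61 and -0.73 for Cox6a2, Cox7a1 and Cox8b.

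The last 4 subunit genes are forms restricted to other tissues or states. Cox4i2, an isoform of lung and low oxygen, and the testis forms Cox7b2 and Cox8c were not well above background on both arrays of either group and were not tested. Cox6b2, another testis form, was well above background on all 4 arrays, with levels of 0.25 and 0.22 in cKO and 0.12 and 0.075 in WT. Its log2 change of 0.14 (adjusted p = 0.032) ran against its general partner Cox6b1 (-0.47). This difference, 0.61, also had an exact permutation p of 0.333. Of 7 isoform pairs set for comparison, 4 had both genes measured.

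The 10 genes that share a prefix without being subunits had smaller changes, with a median of -0.24, and none was called. The 4 complex I assembly factors Ndufaf1 (-0.33), Ndufaf2 (-0.28), Ndufaf3 (-0.39) and Ndufaf4 (-0.39) were lower. The factors Sdhaf1 (-0.26) and Sdhaf2 (-0.20), which help to build complex II, were lower too, as were Atp5s (now Dmac2l, -0.22) and Cox7a2l (-0.12), a factor of supercomplexes. The changes of Atp5sl (now Dmac2, 0.025) and Cox4nb (now Emc8, of a complex of the endoplasmic reticulum, 0.047) had adjusted p-values of 0.62 and 0.37. Under centring on bright genes, Cox7a2l had 0.062. These 10 genes were named after their values were seen.

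Members are bright on these arrays, and bright genes as a whole had lower values in the cKO pool. Of the 915 other genes with a mean scaled log2 level of 4 or more, 81.6% were below 0, their median log2 change was -0.16, and 5.79% were called lower. The 58 members as bright as this had a median of -0.42, and so did the 29 dimmer members, where the 16553 dimmer other genes had -0.039. Called lower were 5 of the 58 (8.62%) and 4 of the 29 (13.8%), beside 4.74% of the dimmer other genes. The part of brightness in the result was not tested beyond these values.

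**Figure D3:**
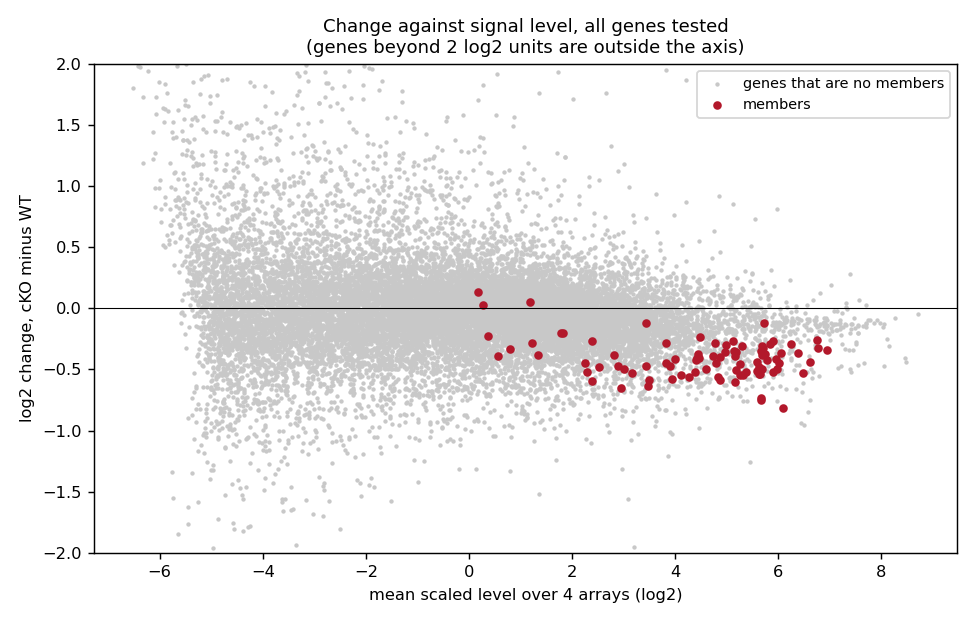
Each point is 1 gene, with its mean scaled log2 level over the 4 arrays (x axis) against its log2 change, cKO minus WT (y axis). Members (red) sit below 0 along the range from about level 2 upward, and the 915 bright other genes have a median of -0.16.

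Several members had more than 1 probe. Of 125 kept probes, 119 were below 0, and of 28 genes with more than 1 kept probe, 23 had all of them below 0. No gene's probes differed by over 1 log2 unit, and the widest range was 0.71 in Uqcrq, a complex III subunit, whose brightest probe had -0.44 and whose other probe had 0.27. Atp5j2 and Ndufb2 likewise had a second probe above 0, at 0.27 and 0.17, beside -0.44 and -0.43 for the brightest. In Uqcrq, Atp5j2 and Ndufb2 the probe above 0 was far dimmer than the brightest. For Uqcrq its scaled log2 levels in cKO were -3.85 and -3.68, beside 6.42 and 6.38.

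The motifs shown above were counted over the 75 matched members in the 300 bases from 250 before to 50 after the start. The NRF1 core was found in 21 of them (28%), where 7.03% of all 27025 genes in the table held it. The ETS core was found in 19 (25.3% against 9.93%), the YY1 motif in 8 (10.67% against 1.64%) and the E-box in 6 (8% against 18.3%). In all, 40 of the 75 held at least 1 of the NRF1, ETS and YY1 motifs, and 6 held both NRF1 and ETS. Members with and without the NRF1 core had median log2 changes of -0.39 and -0.45, and for the ETS core these were -0.40 and -0.44. For the YY1 motif they were -0.44 with and -0.42 without, and for the E-box -0.56 (6 genes) and -0.42. A match describes only the letters in this window, on either strand, and overlapping matches of different motifs were each counted.

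Lists of other mitochondrial genes had medians nearer to 0 than the members, and none of those listed here was called. For the counts below 0 that follow, the share over all genes tested was 57.1%. Electron carriers, coenzyme Q enzymes and the ATP synthase inhibitor had a median of -0.24 over 12 genes, all below 0. Among them Atpif1, the inhibitor, had -0.062, and Cycs, the somatic cytochrome c, had -0.58 (adjusted p = 0.0064, chosen after its value was seen). Assembly factors of complexes III to V had a median of -0.27, with 16 of 17 below 0. The 2 brightest, Cox14 and Cox17, the latter a copper chaperone of complex IV, had -0.43 and -0.42. Enzymes of the tricarboxylic acid cycle had -0.33, with 15 of 16 below 0, among them Mdh2 (-0.31) and Cs, the citrate synthase (-0.24).

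Of the regulators of mitochondrial biogenesis, 7 of 15 were below 0, and their median was 0.024. Among all genes tested, 57.1% were below 0 and the median was -0.051. Tfam, which packs and transcribes mitochondrial DNA, had -0.25 (adjusted p = 0.023), and the nuclear receptor Esrra had -0.21 (adjusted p = 0.0084). Named after their values were seen, Ppargc1a, a coactivator of biogenesis, had -0.10 (adjusted p = 0.13), and Gabpb1, a subunit of the ETS factor GABP, had 0.45 (adjusted p = 0.016). Of the 13 mitochondrially encoded subunits, 4 could be found under the names the array gives them, and none was called. ND4 of complex I (-0.33, adjusted p = 0.0054) and ATP6 of complex V (-0.33, adjusted p = 0.014) were lower. COX2 of complex IV (-0.17, adjusted p = 0.13) and CYTB of complex III (-0.080, adjusted p = 0.66) did not pass 0.05. The WT levels of CYTB, 6.78 and 7.14, lay on either side of its cKO levels, 6.88 and 6.87. The polyA selection of the RNA applies to these 4 transcripts too.

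Most markers of skeletal muscle were lower in cKO, as the muscle isoforms were, while those of slow muscle were mixed. Of 23 skeletal muscle markers, 11 fell and none rose, where 4.82% of all genes were called lower. Their median was -0.52, and 22 were below 0, all but Tcap (0.23, adjusted p = 0.020). Of all genes, 57.1% were below 0. Neb, the thin-filament ruler, had -0.87, the calcium store protein Casq1 had -0.84, and the Z-disc proteins Myoz1 and Actn3 had -0.76 each. The summed level of the list, relative to each array's 75th percentile, was 2025 and 2028 in cKO and 2664 and 2845 in WT, and all 23 markers were well above background. Of 7 slow muscle markers, Tnnt1 fell (-0.65) while Myl2 (1.25) and Myh7 (0.60) rose, with a median of -0.037. The part of muscle content in the result was not tested.

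Brown fat also uses Cox7a1 and Cox8b. All 7 brown adipocyte markers are on the array, and 5 passed the filter and were tested. Ucp1, the defining uncoupling protein of brown fat, did not pass it. Zic1 fell (-0.86), Prdm16 had -0.57, Elovl3 had -0.49 and Cidea had -0.34, while Dio2, which activates thyroid hormone, had 0.57 (adjusted p = 0.0098) and was not called. The summed level was 29.3 and 29.6 in cKO and 37.9 and 38.9 in WT. Cidea, the brightest of the 5, made up most of it, so the sum mainly follows that gene. Among 12 general adipocyte markers, 5 fell, with a median of -0.26: Gpd1, a glycerol phosphate enzyme, had -1.26, and the hormone Lep had -0.97. Fabp4, a fatty acid carrier (0.19, adjusted p = 0.0081), Lipe (0.12) and Pnpla2 (0.064) were above 0. Their summed level was 507 and 514 in cKO against 560 and 584 in WT. The part of fat content was not tested.

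**Figure D4:**
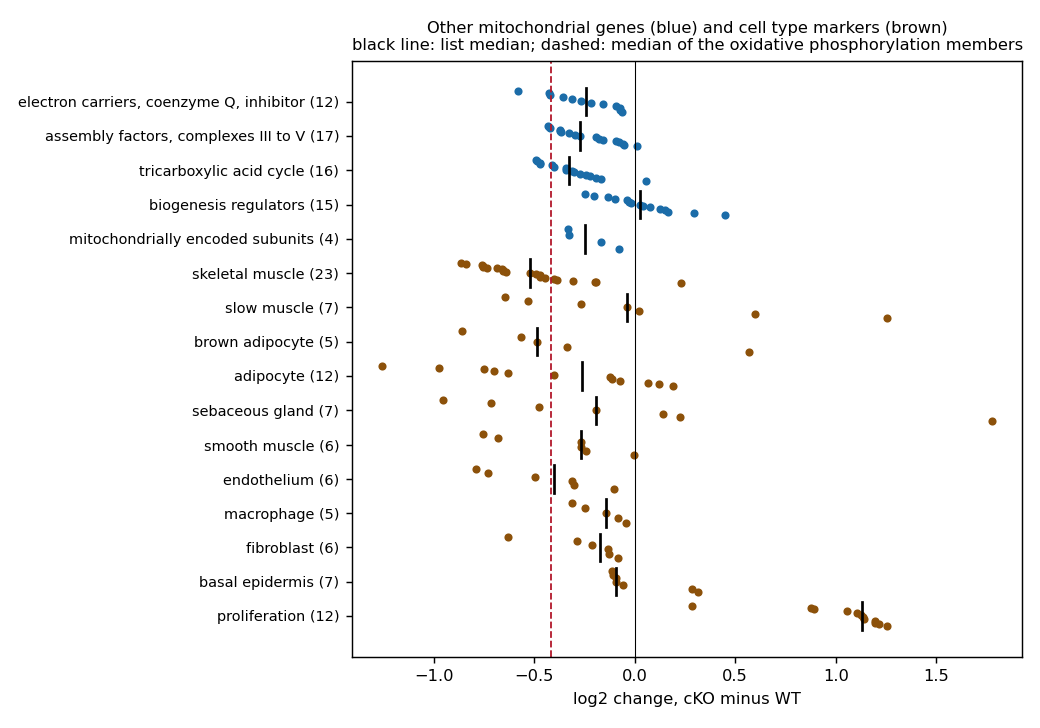
Each point is the log2 change (cKO minus WT, x axis) of 1 gene in a list of other mitochondrial genes (blue) or of cell type markers (brown), with the number tested in brackets. The dashed line is the members' median of -0.42, and the nearest list medians are those of endothelium (-0.40), brown adipocyte markers (-0.49) and the tricarboxylic acid cycle (-0.33), followed by skeletal muscle (-0.52).

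Markers of the growing hair follicle differed between the pools, although the labels give telogen for both. All 13 measured markers of the growing hair matrix and shaft rose in cKO, with a summed level of 220 and 217 against 1.47 and 1.47 in WT. Krt34, Krt85, Krt86 and Shh were not well above background on all 4 arrays. They passed the filter only through the cKO arrays, where they were high, so the filter favoured a rise for them. Of 12 proliferation genes 11 rose (median 1.13), with a summed level of 31.3 and 30.2 against 16.7 and 17.4. The 7 basal epidermal markers had a median of -0.093, and none was called. Markers of other cell types were on the low side in cKO: 2 of 6 endothelial markers fell (median -0.40, Emcn -0.79), 2 of 6 of smooth muscle (median -0.27, Acta2 -0.76), 1 of 6 of fibroblasts (median -0.17) and none of 5 of macrophages (median -0.14). Of 7 sebaceous gland markers 2 fell and 1 rose (median -0.20). The part of these shifts in cell content in the members' change was not tested.

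The 75th percentile of the signal, the number used for scaling, was 1403 and 1453 in cKO and 1271 and 1316 in WT. It was higher on both cKO arrays, so subtracting it lowered cKO values relative to WT. The part of this in the members' change was not tested beyond the settings compared here. Well above background were 64.6% and 69.1% of spots in cKO and 63.1% and 62.1% in WT, and no spot was saturated. Across genes, duplicates correlated at 0.997 and 0.996 and arrays of different pools at 0.964 at most. With 4 arrays on 1 slide and 1 scan time, there was no slide or scan batch to separate.

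The order of the complexes by median was compared across the processing settings. Complex I had the lowest median of the 5 (-0.47 under the main scaling) under every setting but quantile normalization alone, where complex II was lower (-0.33 against -0.31). All 5 medians were below 0 under every setting.

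**Figure D5:**
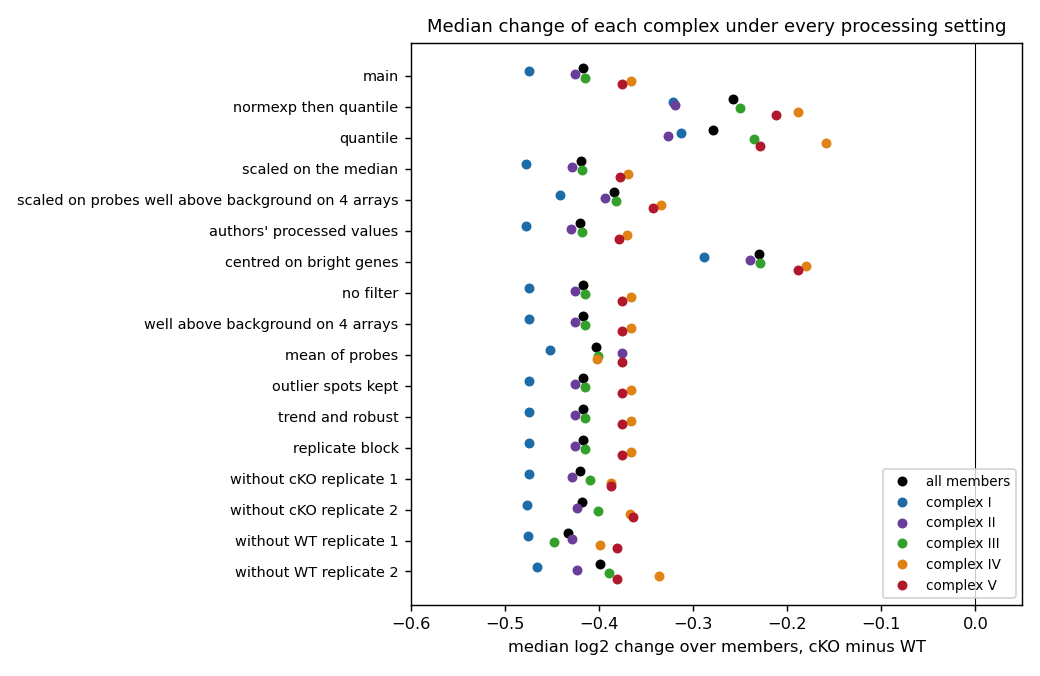
Median log2 change over the members (x axis) of all members and of each complex (colours) under each processing setting (y axis). Every median is below 0, and the 3 settings that use quantile normalization or bright genes sit nearest to it, with -0.26, -0.28 and -0.23 for all members.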

How the data were processed

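Per the file headers, spots were quantified with Agilent Feature Extraction 10.7.3.1, which gave a background-subtracted spot intensity on a linear scale, with probe positions on mm9. The authors' deposited value table was found to hold that intensity as a ratio to 1 number per array (column medians 0.101 and 0.0983 for cKO, 0.0987 and 0.101 for WT), with neither log nor centring of genes. The sources used here do not name its tool.

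From the deposited intensity, the log2 was taken and each array's 75th percentile over non-control spots subtracted (the scaled level, which is not comparable between probes). Outlier spots were treated as missing. Kept probes were those that 1 or both groups had well above background on both arrays, and a gene is its brightest kept probe. The test was that of limma 3.58.1 (R 4.3.3; lmFit, then eBayes), two-sided, with Benjamini-Hochberg adjustment over 17555 genes. Called means an adjusted p under 0.05 and at least 1.5-fold. Probe names were updated through a RefSeq table of GRCm38.p6, from which the promoters also came. The R package data.table (version 1.17.8), Python 3.11.15, pandas 2.3.3 and matplotlib 3.10.9 were also used. The fit was tested on simulated data.

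The members, lists and tests were chosen with earlier results of these data known. Named were the isoform pairs and restricted isoforms, called members, the extremes and middle of each complex, complex II, the core of complex I, Fgf18, and up to 4 called or the 2 brightest genes of each other list (markers in part). A gene that this rule selects is not reported here. Further genes were picked with their values in view. Same-numbered arrays did not deviate together from their group means (r = -0.043 over 17550 genes), so the numbers do not pair them.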

Additional observations from a re-analysis of the deposited data

How the results depend on the processing

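Of 87 members, 84 were called lower and 1 higher on adjusted p alone, 9 and 0 with the fold threshold, and 9 with the replicate block, which changed no call of a member. The count was 1 after normexp and quantile normalization, 1 after quantile normalization alone, 5 when scaled on probes well above background on 4 arrays, 1 when centred on bright genes (each array set to the median of other genes at a level of 4 or more, chosen after seeing the data), 7 with the mean of probes, and 6 to 9 without 1 array, the lowest without WT replicate 2 (the lone array is then assumed to vary like those of the other pool). With the authors' values it was 10, and with scaling on the median, other filters on dim probes, outlier spots kept or an intensity trend it was 9. Over all genes, 54.0% of calls were higher in the main scaling, 59.9% after normexp and quantile normalization and 81.5% when centred on bright genes, which moved the median of all genes to 0.14. For normexp with quantile, quantile alone, scaling on detected probes and centring on bright genes, the medians were -0.26, -0.28, -0.38 and -0.23 for all members, -0.32, -0.31, -0.44 and -0.29 for complex I, -0.32, -0.33, -0.39 and -0.24 for complex II, -0.25, -0.24, -0.38 and -0.23 for complex III, -0.19, -0.16, -0.33 and -0.18 for complex IV, and -0.21, -0.23, -0.34 and -0.19 for complex V. With the mean of probes they were -0.40 for all members, -0.45 for complex I, -0.38 for complex II, -0.40 for complex III and -0.40 for complex IV. Under the main scaling, subunits alone had a median of -0.45. Without 1 array the medians ran from -0.43 to -0.40 for all members, -0.48 to -0.47 for complex I, -0.43 to -0.42 for complex II, -0.45 to -0.39 for complex III, -0.40 to -0.34 for complex IV and -0.39 to -0.36 for complex V. Below 1.5-fold, and so no longer called, were Cox6a2 (-0.52, -0.54 and -0.56), Cox8b (-0.50, -0.53 and -0.54) and Cox7a1 (-0.43, -0.43 and -0.42) with normexp and quantile, quantile alone and bright genes, and Cox7a1 when scaled on detected probes (-0.57) and without WT replicate 2 (-0.58). Leaving out 1 array gave -0.76 to -0.73 for Cox6a2, -0.75 to -0.72 for Cox8b and -0.63 to -0.58 for Cox7a1. The sign turned for Cox8a (0.094, 0.082 and 0.064 under the same 3 scalings), Cox7a2l (0.062 with bright genes), Cox4nb (-0.031) and Atp5sl (-0.0037) with the mean of probes, and Atp5sl (-0.016 without WT replicate 2, to 0.066 without WT replicate 1). The cause was not tested. Depth for an array is signal over background, and 125 of 133 probes were kept.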
